A study of Mus musculus with 6 samples.

Results

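The 33 genes described here belong to the pathway of p53, the transcription factor encoded by Trp53. They comprise p53 itself, its regulators and a set of its transcriptional targets, chosen by symbol, and all 33 are among the 17006 genes with a value. They were measured by RNA sequencing of rRNA-depleted total RNA in primary neural stem cells that had been taken from the subventricular zone of C57BL/6 mice and cultured. The young group holds 3 libraries from mice of 2 months and the aged group 3 libraries from mice of 15 to 18 months. Both groups share the preparation: dissected tissue from 5 mice was combined, and RNA was extracted from cultures growing in proliferation medium. The labels give no sex, no passage and no treatment, and do not say whether the 3 libraries of an age came from separate pools of mice. The p-values therefore measure only the spread between these libraries, which may be technical.

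In an unstressed cell p53 is kept scarce by ubiquitin ligases, of which Mdm2 is the best known, and Mdm4 holds back its activity. Because p53 is controlled mainly through the stability and modification of the protein, its activity is often read from its target transcripts and not from its own mRNA. After DNA damage or other stress, p53 induces genes that stop the cell cycle, repair DNA, adjust metabolism or start apoptosis, and it also induces Mdm2, which closes a feedback loop. In the subventricular zone p53 is known to restrain the self-renewal and proliferation of neural stem cells.

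Values are FPKM, fragments per kilobase of transcript scaled to library size, which allows levels of different genes to be compared. The step that 1 read makes in the low values gave an estimated 5240000 to 5440000 reads in each library. Stem cell markers were abundant in all 6 libraries, with Sox2 at 165 to 185.6 FPKM, Nes at 255.8 to 275.2 FPKM and Fabp7 at 2661.7 to 2877.7 FPKM. Some markers of other cell types were higher in aged libraries. The summed level of 5 neuroblast and neuron markers lay between 12.8 and 14.2 FPKM at the young age and between 16.3 and 19.3 FPKM at the aged one, with 2 of 5 reaching a mean of 1 FPKM. Both of these, Tubb3 and Snap25, were higher in all aged libraries. Dcx, which ranged from 0.29 to 0.80 FPKM, was also higher in all of them. Rbfox3 and Syt1 were low and overlapped between the ages. The aged mean was lower for Rbfox3 (0.683 and 0.657 FPKM) and higher for Syt1 (0.113 and 0.18 FPKM). For 7 fibroblast and pericyte markers the sums were 5.56 to 6.62 and 6.93 to 8.20 FPKM, with 3 of 7 reaching that mean. Among them Col1a1 rose, from a mean of 0.423 to 2.46 FPKM (limma adjusted p = 0.0107), and Col1a2 (means 0.0133 and 0.633 FPKM) and Col3a1 (0.02 and 0.13 FPKM) were higher in all aged libraries. Myl9 and Tagln overlapped with lower aged means, and Pdgfrb was at 0 to 0.03 FPKM. For 5 endothelial markers the sums were 1.80 to 2.95 and 2.98 to 3.25 FPKM. Egfl7, the only one reaching a mean of 1 FPKM, had means of 1.51 and 2.56 FPKM without overlap (limma adjusted p = 0.147). The other endothelial markers were low and overlapped. Pecam1 (0 to 0.17 FPKM), Tek (means 0.18 and 0.107 FPKM) and Cldn5 (0.13 and 0 FPKM) had lower aged means. Kdr had means of 0.417 and 0.44 FPKM. The 5 oligodendrocyte markers summed to 68.9 to 75.9 and 75.6 to 80.2 FPKM, nearly all of it Cnp, which was higher in all aged libraries (means 69.05 and 75.8 FPKM, limma adjusted p = 0.297), while Mbp, at 0.29 to 0.89 FPKM, was lower in all of them, and Mag and Mog were at 0 to 0.22 FPKM. The part of these cells in the results below was not tested, and in bulk RNA fewer cells of a type and less RNA per cell cannot be told apart. Sums for microglia (2.41 to 3.96 and 2.74 to 3.19 FPKM), for ependyma and choroid plexus (20.7 to 25.4 and 23.9 to 27.8 FPKM) and for oligodendrocytes overlapped between the ages. In the ependyma and choroid plexus list Enpp2 was higher in all aged libraries (means 11.6 and 15.1 FPKM, limma adjusted p = 0.182). Foxj1 had a lower aged mean (11.8 and 10.15 FPKM), with overlap. Hydin (means 0.0767 and 0.0933 FPKM) and Kcnj13 (0.0467 and 0 FPKM) were low and overlapped.

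Of the 33 genes, 32 were tested and 1 passed the threshold between young and aged libraries. Donor age and the pools of mice cannot be told apart here, because the labels do not say whether the libraries of an age came from separate pools. Trp53i11, a p53-inducible gene linked to apoptosis, fell by 23.4% in aged libraries, whereas mRNA of Trp53, Mdm2 and Mdm4 differed between the ages by less than the spread between libraries. The test was limma on log2(FPKM + 1) over the 11912 genes whose mean reached 1 FPKM, with p-values adjusted over all of them by Benjamini-Hochberg and a threshold of 0.05. Perp was below that level, so 32 of the 33 genes were tested. The 1 call among 32, a lower one, stands beside 0.722% of all genes tested that passed, 0.395% lower and 0.327% higher in aged libraries. Of the 32 members, 25 had a lower and 7 a higher fitted value in aged libraries, with a median log2 change of -0.05. Over all genes tested 49% were lower, and the median log2 change was 0.003. Apoptosis and cell cycle arrest targets made up most of the lower values, repair genes lay on both sides, and the higher ones with the largest change, Gdf15 and Ddit4l, belong to the metabolic and stress group.

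**Figure D1:**
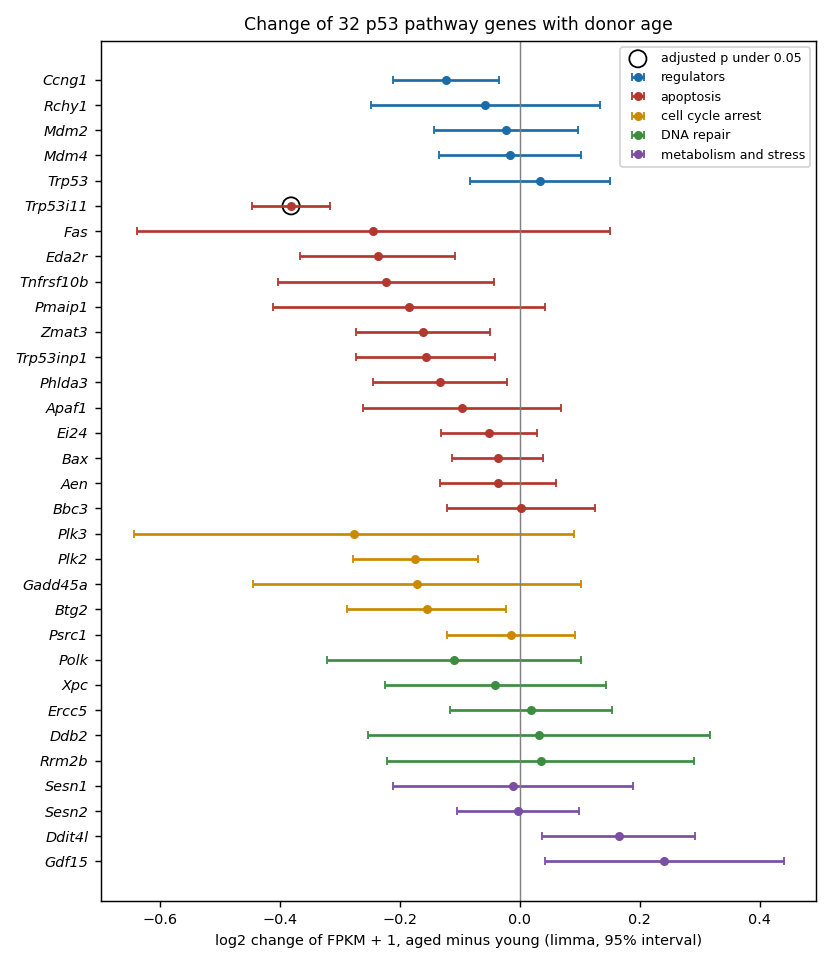
Log2 change of FPKM + 1 (aged minus young, horizontal axis) of the 32 p53 pathway genes tested, grouped by role, with the 95% interval of the limma fit over 3 young and 3 aged libraries. Trp53i11, circled, lies at -0.38 and is the only member past an adjusted p of 0.05. Intervals of 8 other members lie wholly below 0, and those of Ddit4l and Gdf15 wholly above it.

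Among the regulators, Trp53 (gene 22059, mm10 chromosome 11, 69580348 to 69591873) was at 65.23, 69.49 and 67.12 FPKM in the young and at 65.62, 73.76 and 67.46 FPKM in the aged libraries. The groups overlapped, and the highest value was that of aged 2. The log2 change was 0.03 with a 95% interval of -0.08 to 0.15 (limma adjusted p = 0.866). Mdm2, the ubiquitin ligase that marks p53 for degradation, was at 26.14, 27.77 and 28.05 FPKM in young and 27.07, 25.68 and 27.85 FPKM in aged libraries, which overlapped (log2 change -0.02, 95% interval -0.14 to 0.10). Mdm4, its relative that masks the activation domain of p53, was at 16.30, 16.95 and 16.21 FPKM in young and 16.07, 16.34 and 16.45 FPKM in aged libraries. These 6 values of Mdm4 spanned less than 1 FPKM and the groups overlapped (log2 change -0.02, 95% interval -0.14 to 0.10). Rchy1, another ubiquitin ligase for p53, had means of 26.95 ± 1.33 and 25.96 ± 3.20 FPKM (SD, n = 3 each) in young and aged libraries, with overlap.

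Ccng1, which encodes cyclin G1, a p53 target that acts on Mdm2 through a phosphatase, was at 91.80, 88.29 and 89.51 FPKM in young and 82.50, 85.40 and 79.51 FPKM in aged libraries. All 3 aged values lay below the young ones. The log2 change of -0.12 ± 0.04 (SE) did not pass adjustment (limma adjusted p = 0.254, unadjusted p = 0.0122).

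The apoptosis group holds 14 genes, of which 13 were tested and 12 of these had a lower fitted value in aged libraries, with a median log2 change of -0.16. Trp53i11 (gene 277414, chromosome 2, 93187349 to 93201757) was at 198.51, 201.34 and 203.29 FPKM in young and 155.08, 155.16 and 151.91 FPKM in aged libraries. The lowest young value exceeded the highest aged one by more than 40 FPKM, while the values within each age lay within 5 FPKM of each other. Its means were 201.0 ± 2.40 and 154.0 ± 1.85 FPKM (SD, n = 3 each), and these rest on an estimated 2896 and 2159 reads. On the log2 scale it fell by 0.38 ± 0.03 (SE), the 95% interval being -0.45 to -0.32 (limma adjusted p = 0.00149), and by its unadjusted p of 5e-07 it ranked 4 among all genes tested. The gene was second in level only to Bax among the 33. The call was kept without any 1 library (highest limma adjusted p 0.0220) and ended without limma's trend, a setting in which 11 genes passed in all (adjusted p = 0.0614). No exon of another gene overlapped those of Trp53i11 in the GENCODE basic annotation.

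**Figure D2:**
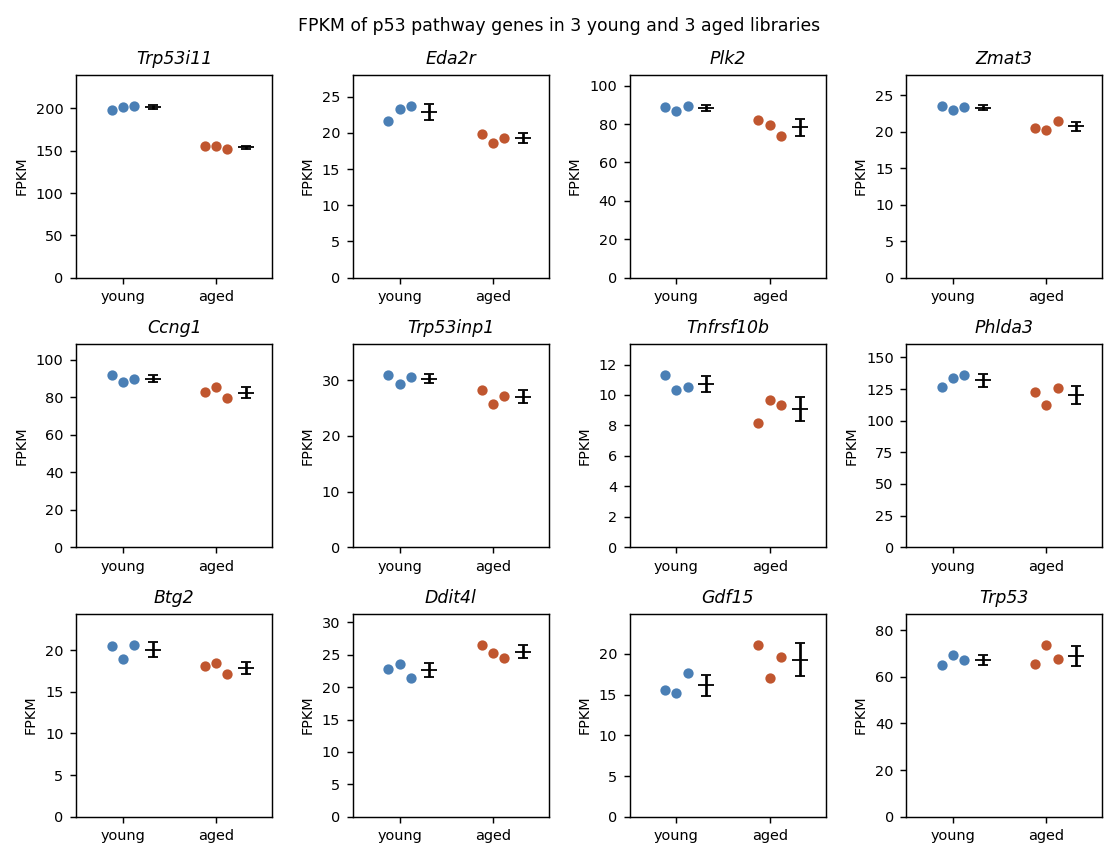
FPKM (vertical axes, starting at 0) of 12 p53 pathway genes in the 3 young and 3 aged libraries; points are libraries, ordered by replicate number, and bars are the mean ± SD. Trp53i11 separates the ages widely, from Eda2r to Btg2 and for Ddit4l the groups do not overlap but lie close, and Gdf15 and Trp53 overlap.

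The receptors of the group were next. Eda2r (gene 245527, chromosome X, 97333837 to 97377234), a p53-induced receptor of the tumour necrosis factor family, was at 21.60, 23.29 and 23.76 FPKM in young and 19.89, 18.57 and 19.28 FPKM in aged libraries. All aged values lay below all young ones, and the log2 change of -0.24 ± 0.06 (SE) had the second smallest unadjusted p of the 32 members, 0.00264 (limma adjusted p = 0.135). Tnfrsf10b, a death receptor for the ligand TRAIL, was at 11.31, 10.31 and 10.54 FPKM in young and 8.16, 9.65 and 9.35 FPKM in aged libraries. The groups did not overlap, with aged 1 lowest (log2 change -0.22, limma adjusted p = 0.310). Fas, the other death receptor, was low, at 2.97, 3.58 and 3.71 FPKM in young and 1.89, 2.84 and 3.64 FPKM in aged libraries, about 18.7 and 14.8 estimated reads on average. Its groups overlapped and the 95% interval of its log2 change, -0.64 to 0.15, was the widest of the members.

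Of the intracellular members, Zmat3, an RNA-binding zinc finger protein, was at 23.57, 22.89 and 23.39 FPKM in young and 20.55, 20.20 and 21.39 FPKM in aged libraries. Trp53inp1, a stress protein that enhances p53 activity, was at 30.95, 29.36 and 30.60 FPKM in young and 28.20, 25.79 and 27.26 FPKM in aged libraries. Phlda3, which restrains the survival kinase Akt, was at 126.27, 133.98 and 136.06 FPKM in young and 122.51, 112.71 and 126.10 FPKM in aged libraries. None of the 3 overlapped between the ages, although for Phlda3 the gap between young 1 and aged 3 was under 1 FPKM. Their log2 changes were -0.16, -0.16 and -0.13, and the limma adjusted p values 0.232, 0.268 and 0.323. Without aged 2 the log2 change of Phlda3 was -0.09, and its unadjusted p stayed under 0.05 in 12 of 16 alternative fits.

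Of the mitochondrial death route, Bax and Bbc3 lay closer together between the ages than Pmaip1 and Apaf1, given below (log2 changes -0.19 and -0.10). Bax, whose protein opens the outer mitochondrial membrane, had the highest level of the 33, at 332.99, 344.48 and 331.59 FPKM in young and 340.33, 324.91 and 318.29 FPKM in aged libraries. Bbc3, which encodes Puma, was at 27.64, 26.85 and 24.79 FPKM in young and 25.87, 27.01 and 26.47 FPKM in aged libraries. Both genes overlapped between the ages, and the 95% intervals of the log2 change ran from -0.11 to 0.04 for Bax and from -0.12 to 0.13 for Bbc3. The value of Bax may include reads of Gm45808, whose exons share 192 bases with it on the same strand.

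Pmaip1, which encodes Noxa, had means of 7.94 ± 0.248 and 6.91 ± 0.995 FPKM (SD, n = 3 each) in young and aged libraries, with overlap because aged 1 lay at 7.90 FPKM. Apaf1, the scaffold of the apoptosome, had means of 9.83 and 9.12 FPKM, Ei24, a protein of the endoplasmic reticulum, 103.2 and 99.6 FPKM, and Aen, an apoptosis-enhancing nuclease, 69.0 and 67.3 FPKM. The groups of these 4 genes overlapped, with limma adjusted p values of 0.531 to 0.810. Perp, a membrane protein of cell junctions and apoptosis, ranged from 0.48 to 0.77 FPKM among young libraries and from 0.10 to 0.89 FPKM among aged ones, about 6.78 and 4.07 estimated reads, too few to compare.

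All 5 cell cycle arrest genes had a lower fitted value in aged libraries, with a median log2 change of -0.17, and none passed adjustment (2 of 5 were lower at an unadjusted limma p under 0.05, against 5.55% of all genes tested). Plk2 (gene 20620, chromosome 13, 110395044 to 110400844), a polo-like kinase induced by p53, was at 89.07, 86.66 and 89.67 FPKM in young and 82.10, 79.37 and 73.60 FPKM in aged libraries. The groups did not overlap and the aged values were spread more widely (log2 change -0.17 ± 0.05 SE, limma adjusted p = 0.169). Btg2, an antiproliferative co-regulator of mRNA decay and transcription, was at 20.54, 18.98 and 20.67 FPKM in young and 18.15, 18.47 and 17.09 FPKM in aged libraries. Here young 2 and aged 2 lay about 0.5 FPKM apart, without overlap of the groups (log2 change -0.16, limma adjusted p = 0.335).

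Gadd45a, a stress sensor that slows entry into mitosis, was at 17.66, 21.25 and 17.37 FPKM in young and 16.34, 19.57 and 13.95 FPKM in aged libraries. The groups overlapped, and library 2 was the highest of its age in both. Plk3, a related kinase of the stress response, had means of 4.29 ± 0.423 and 3.43 ± 0.959 FPKM (SD, n = 3 each) in young and aged libraries, from about 55.4 and 43.1 estimated reads, with overlap. Psrc1, a microtubule-associated protein, was nearly the same, at 72.85 and 72.12 FPKM. Gadd45a and Plk3 each share exon bases with a gene on the opposite strand (238 and 84), and whether the authors counted by strand is not given in the sources used here.

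The 5 DNA repair genes overlapped between the ages without exception, and their median log2 change was 0.02. Most genes tested overlapped too: only 8.58% were lower and 8.98% higher in aged libraries without overlap. Of the damage recognition factors of nucleotide excision repair, Xpc had means of 6.05 and 5.86 FPKM and Ddb2 of 3.94 and 4.03 FPKM in young and aged libraries. Ercc5, the endonuclease that cuts on the 3′ side of a lesion, had means of 12.96 ± 0.361 and 13.15 ± 0.497 FPKM (SD, n = 3 each), and its log2 change was 0.02 with a 95% interval of -0.12 to 0.15. Polk, a translesion polymerase, had means of 3.94 and 3.58 FPKM, and Rrm2b, the p53-inducible subunit of ribonucleotide reductase, of 3.67 and 3.78 FPKM. The smallest limma adjusted p of the group was 0.722. Exons of Rrm2b share 260 bases with Gm49085, and those of the regulator Rchy1 share 349 with Thap6. Ercc5 apart, these repair genes rest on at most about 119 estimated reads per library on average. The exons of Ddb2 share 621 bases with Acp2 on the opposite strand.

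In the metabolic and stress group, the targets with the largest log2 changes lay higher in aged libraries. Gdf15 (gene 23886, chromosome 8, 70629393 to 70632470), a secreted stress cytokine, was at 15.57, 15.20 and 17.64 FPKM in young and 21.14, 17.08 and 19.63 FPKM in aged libraries. The groups overlapped by young 3 and aged 2, and the log2 change of 0.24 ± 0.09 (SE) did not pass adjustment (limma adjusted p = 0.318). Ddit4l, an inhibitor of mTOR signalling, was at 22.84, 23.54 and 21.44 FPKM in young and 26.58, 25.21 and 24.58 FPKM in aged libraries. It was the only member with all aged values above the young ones, with a log2 change of 0.16 ± 0.06 (SE), which missed the threshold too (limma adjusted p = 0.286). The sestrins, stress-inducible inhibitors of mTOR complex activity, did not share this order. Sesn1 was at 12.19, 13.33 and 10.80 FPKM in young and 11.78, 12.96 and 11.19 FPKM in aged libraries, and Sesn2 at 53.36, 50.63 and 52.40 FPKM in young and 49.86, 54.07 and 52.13 FPKM in aged libraries. Both overlapped, with 95% intervals of the log2 change of -0.21 to 0.19 and -0.11 to 0.10.

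Across the 32 tested members, 9 had all 3 aged values below the young ones (28.1%), against 8.58% of all genes tested, and 1 had all above (3.12%), against 8.98%. At an unadjusted limma p under 0.05, 9 members were lower (28.1%), against 5.55% of all genes tested, and 2 were higher (6.25%), against 6.3%. These are the same 9 members in both counts, Trp53i11, Eda2r, Plk2, Zmat3, Ccng1, Trp53inp1, Tnfrsf10b, Phlda3 and Btg2. A lower level of p53 targets was already known from these data when the members were chosen, so these counts describe the list and are no independent support. Apart from Trp53i11 the differences were small: the means of the other 8 in aged libraries were 0.841 to 0.918 times those in young ones. Eda2r, Plk2, Zmat3, Ccng1 and Trp53inp1 kept an unadjusted p under 0.05 in all 16 alternative fits, and their adjusted p was above 0.05 in every one.

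**Figure D3:**
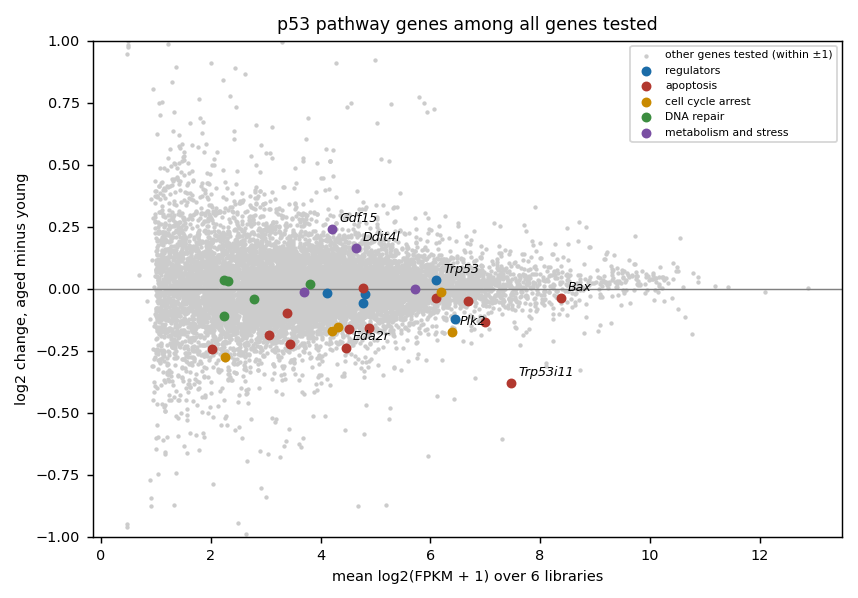
Log2 change (aged minus young, vertical axis) against mean log2(FPKM + 1) over the 6 libraries (horizontal axis) for the 32 tested p53 pathway genes, coloured by role, on all other genes tested in grey; 44 genes with an absolute log2 change above 1 lie outside the plot. Trp53i11 lies below most grey points of its level, and the other members lie among those of theirs.

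The lower values did not come from 1 library. The median deviation of the 32 members from their own mean over all libraries was 0.02, 0.04 and 0.04 on the log2 scale in young 1, 2 and 3, and -0.05, -0.03 and -0.04 in aged 1, 2 and 3. Over all genes tested it was within 0.005 of 0 in every library. In aged 1, 26 of the 32 members were below their own mean, in aged 2 20 and in aged 3 21, against 6 to 11 in the young libraries. These counts describe a list chosen with a lower level of p53 targets already known. The same counts were not made over all genes tested. The libraries differed in which members were lowest: aged 1 for Tnfrsf10b and Fas, aged 2 for Phlda3, Eda2r and Plk3, aged 3 for Plk2, Pmaip1 and Gadd45a. The median coefficient of variation of a member within an age was 3.97% in young and 4.79% in aged libraries. The sampling of the estimated reads alone would give 5.56% and 5.71%, so both medians lay below it. An SD from 3 values is imprecise, and whether the reads were underestimated was not tested.

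**Figure D4:**
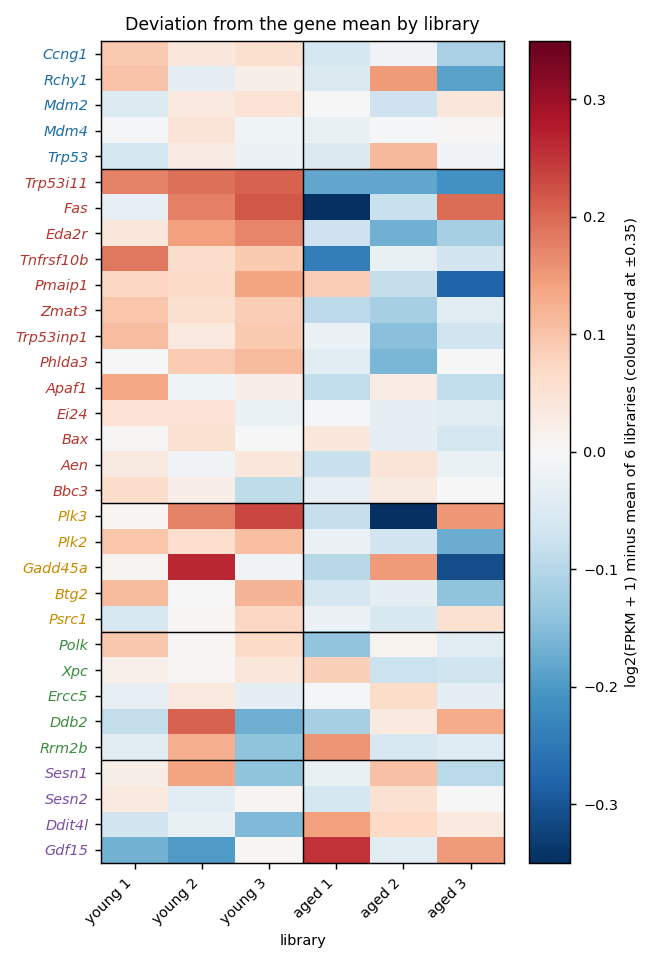
Deviation of log2(FPKM + 1) from the mean of the 6 libraries for the 32 tested p53 pathway genes (rows, label colours by role, from regulators at the top to metabolic and stress genes at the bottom) in each library (columns); red is above the mean, blue below, and colours end at ±0.35. The rows of the apoptosis and arrest groups are mostly red in the 3 young and blue in the 3 aged libraries, the strongest and most even being Trp53i11.

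The promoters were searched for the p53 half-site consensus, the palindromic motif of 10 letters of which p53 binds a pair. The stretches are shown because the list holds p53 targets. Whether these sites have a part in the lower values was not tested. RefSeq promoters (GRCm38.p6, the mm10 assembly) were found for 25 of the 33 genes, and the 250 bases before each start were read on both strands. Of the 25 genes, 11 held a half-site (44%), against 8.2% of the 27025 genes in the table. The half-sites lay from 10 bases (Ei24) to 231 bases (Polk) before a start. The stretches of Rchy1, Aen, Polk and Sesn1 lie within the span of the gene, before a start inside it. The stretches around the half-sites are shown 5′ to 3′ on the strand of the gene, with the half-site in capitals.
Trp53 (chr11:69580274-69580303, plus strand): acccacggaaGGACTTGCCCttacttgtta
Mdm2 (chr10:117710925-117710954, minus strand): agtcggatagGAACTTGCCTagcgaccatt
Ccng1 (chr11:40755452-40755481, minus strand): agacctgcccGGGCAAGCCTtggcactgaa
Rchy1 (chr5:91962627-91962656, minus strand): cactatgacaGAGCTTGTCTcctcaaggtg
Bax (chr7:45467080-45467109, minus strand): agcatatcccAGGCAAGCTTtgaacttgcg
Aen (chr7:78895927-78895956, plus strand): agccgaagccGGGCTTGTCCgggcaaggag
Ei24 (chr9:36797335-36797364, minus strand): ccagctgccccgtgcggcccGGGCATGCCC
Gadd45a (chr6:67037428-67037457, minus strand): ggttggctgaGGGCTAGCCCcatatctccg
Polk (chr13:96519399-96519428, minus strand): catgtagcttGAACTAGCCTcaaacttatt
Sesn1 (chr10:41887256-41887285, plus strand): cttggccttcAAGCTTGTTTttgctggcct
Ddit4l (chr3:137623572-137623601, plus strand): caactcccagGGGCTTGCCTgggcccctgc
A pair of half-sites with intact cores, a spacer of up to 13 bases and at most 2 mismatches in the 12 outer letters was found for Bax and Sesn1, 2 of 25 genes (8%), against 2.06% of all genes in the table. Of the 9 genes with all aged values below the young ones, 6 had a promoter in the table. That of Ccng1 held a half-site, 185 bases before the start (1 of 6, 16.7%, against 8.2% of all genes in the table), too few genes to compare. The promoter of Trp53i11 held none in this window, and sequence outside the 250 bases was not searched for any gene.

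Other genes of the pathway were read from 4 lists that share no gene with the 33. The first held 28 more p53 targets, of which 22 were tested and 0 passed limma (unadjusted p was under 0.05 for 5 lower genes and 1 higher, 22.7% and 4.55%, against 5.55% and 6.3% of all genes tested), with a median log2 change of -0.06. The nearest to the threshold was Rprm, which encodes reprimo, a p53-induced mediator of arrest, at 28.21, 30.04 and 28.36 FPKM in young and 24.69, 23.19 and 22.25 FPKM in aged libraries. Its groups did not overlap (log2 change -0.29, limma adjusted p = 0.0613), and it passed among genes of at least 5 FPKM (0.0453). Igfbp3, a secreted binder of insulin-like growth factors, was at 478.71, 472.59 and 478.36 FPKM in young and 445.27, 438.43 and 438.40 FPKM in aged libraries, without overlap (limma adjusted p = 0.0859, and 0.0409 after quantile normalization). Epha2, an ephrin receptor, had means of 4.91 and 3.58 FPKM (limma adjusted p = 0.210). Fdxr, a mitochondrial electron carrier, had means of 13.7 and 15.95 FPKM (0.294), and it was the only tested gene of this list with all aged values above the young ones.

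Cdkn1a, whose product p21 is the main p53 effector of cell cycle arrest, was at 251.45, 250.37 and 244.19 FPKM in young and 239.70, 222.83 and 239.16 FPKM in aged libraries. The groups did not overlap, but the log2 change of -0.09 ± 0.04 (SE) was smaller than those of the 9 members and did not pass adjustment (limma adjusted p = 0.380). Without aged 2, the lowest library, the log2 change of Cdkn1a was -0.05. Its exons share 273 bases with AC167363.2 on the opposite strand. Ppm1d, the phosphatase that switches p53 signalling off, was at 15.84, 14.88 and 14.80 FPKM in young and 14.91, 15.85 and 17.16 FPKM in aged libraries, with overlap (log2 change 0.07, 95% interval -0.08 to 0.22).

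The list of p53 modulators, kinases, cofactors and ligases that act on p53, held 25 genes, of which 23 were tested. Unadjusted p was under 0.05 for 1 lower gene and 0 higher, 4.35% and 0%, against 5.55% and 6.3% of all genes tested. After adjustment 1 gene passed, a lower one (4.35%, against 0.395% of all genes tested). That gene was Cdkn2a, one transcript of which encodes the Mdm2 inhibitor Arf, at 126.33, 127.00 and 126.23 FPKM in young and 94.11, 104.23 and 96.74 FPKM in aged libraries. The groups were far apart, and the log2 change was -0.36 ± 0.04 (SE; limma adjusted p = 0.0102, and 0.0809 without limma's trend), but a value per gene cannot separate the Arf transcript from that of p16. The other 22 had adjusted p values of at least 0.550. Among them Rpl5, a ribosomal protein that binds Mdm2, had means of 345.9 and 360.0 FPKM, Ppp1r13l, an inhibitor of p53, 3.42 and 3.95 FPKM, and Ube4b, a ligase that works with Mdm2, 31.7 and 30.3 FPKM. The kinases Atm and Chek2, which relay DNA damage to p53, had means of 6.08 and 5.91 FPKM and of 12.9 and 12.4 FPKM, named after their values were seen. The relatives of p53 were almost absent, with Trp63 at 0 to 0.11 FPKM and Trp73 at 0.08 to 0.35 FPKM.

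Of 22 genes of the BCL2 family and the caspases, 19 were tested and 0 passed limma (unadjusted p was under 0.05 for 2 lower and 2 higher genes, 10.5% each, against the same 5.55% and 6.3%). Bok and Bak1, both killers of the Bax type, were higher in all aged than in all young libraries, with means of 29.96 and 34.65 FPKM and of 40.3 and 43.4 FPKM (limma adjusted p = 0.225 and 0.362). The survival proteins Mcl1 and Bcl2 had means of 62.5 and 58.7 FPKM and of 5.66 and 4.67 FPKM in young and aged libraries (0.405 and 0.419), and the groups of Bcl2 overlapped. Of 10 cell cycle genes that p53 represses through p21, all were tested and 0 passed limma. Unadjusted p was under 0.05 for 0 lower genes and 1 higher, 10% against 6.3% of all genes tested. A higher fitted value was found for 9 of the 10, with a median log2 change of 0.03. Over all genes tested 49% were lower. Limma adjusted p values in this list ran from 0.268 to 0.974. Plk1 had means of 63.6 and 69.2 FPKM (limma adjusted p = 0.268), Foxm1 34.6 and 37.2 FPKM, Cdk1 48.96 and 52.2 FPKM and Ccnb2, the exception, 39.2 and 36.8 FPKM. Over the 73 tested genes of the 4 lists, with Chek1, which is in 2 of them, counted once, 37 were lower and 36 higher, with a median log2 change of -0.005.

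**Figure D5:**
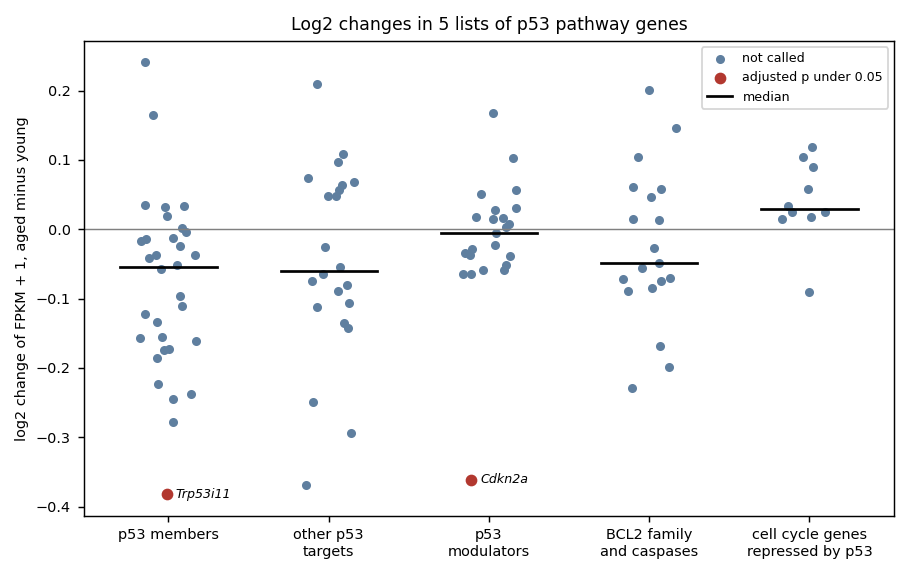
Log2 changes of FPKM + 1 (aged minus young, vertical axis) of the 32 tested p53 pathway genes and of the 4 other lists, with 1 point per gene and the median of each list as a bar. Trp53i11 and Cdkn2a, in red, are the only points past an adjusted p of 0.05, and medians run from -0.06 for the other p53 targets to 0.03 for the cell cycle genes that p53 represses.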

How the data were processed

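Libraries were made from 1 ug of total RNA depleted of rRNA, per the labels' protocols. Each deposited table lists genes with FPKM, rounded to 2 decimals, per the file headers. The submitters' processing notes name TopHat and Cuffdiff as tools and mm10 as the build; annotation, strand setting and normalization between libraries are not given in the sources used here. Genes were matched by Entrez identifier to RefSeq (GRCm38.p6; 16962 of 17006). Depth was estimated from the steps of low FPKM, and estimated reads, which use transcript lengths, are approximate. FPKM are not counts, so no count test was used. The test was limma 3.58.1 in R 4.3.3 with a mean-variance trend and no covariate, fitted to the 6 libraries on log2(FPKM + 1), two-sided, with 95% intervals from the same fit, and was tested on simulated data. A pseudocount of 1 understates the change of low genes. Tables were handled in pandas 2.3.3 and figures drawn in matplotlib 3.10.9 (Python 3.11.15).

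Members and lists were chosen with earlier results of these data known. The roles (regulators, apoptosis, arrest, repair, metabolism and stress) were assigned by hand. Values per library were given for members with an unadjusted p under 0.05 and for 10 members and 3 pathway genes fixed by name. From each other list the called genes and up to 4 with the smallest p were named; any further gene named was chosen after its values were seen. Lists are described by counts and medians, with no set test. The alternatives were another pseudocount (0.1 or 5), filter (none or 5 FPKM), scaling (3 kinds), limma option or replicate block, and leaving out each library.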

Additional observations from a re-analysis of the deposited data

How the results depend on the processing

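Among members, the Trp53i11 call was kept in 15 of 16 alternatives. Without limma's trend 0 of the 32 members, 11 of all genes and 0 of the other pathway genes passed, against 1, 86 and 1. The replicate numbers did not pair the libraries: deviations of same-numbered libraries correlated at 0.008, -0.07 and 0.11. Blocking on replicate number left 22 genes called, Trp53i11 among them (adjusted p = 0.0244), and 0 other pathway genes (Cdkn2a 0.0511). With any 1 library left out 39 to 70 genes passed. The other pathway genes called were 2 among genes of at least 5 FPKM (with Rprm) and 2 after quantile normalization (with Igfbp3).

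The median log2 change of the members was -0.0546. It was -0.0638 after quantile normalization, -0.0680 after rescaling to TPM and -0.0476 to -0.0809 with 1 library left out (without aged 3 and without young 3). Members with all aged values lower numbered 10 to 14 with 1 library left out (14 without aged 2, when 14.7% of all genes tested were so); with fewer values per group, less overlap follows by construction. Under the 3 other scalings 26 members were lower and 6 higher.

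Signs turned for members with log2 changes near 0, none of them called. Bbc3 was at -0.0042 after quantile normalization, -0.0004 by median of ratios and -0.0108 after rescaling to TPM. With 1 library left out, log2 changes ran from -0.0413 to 0.0344 for Bbc3, -0.0154 to 0.0678 for Trp53, -0.0538 to 0.0076 for Mdm2, -0.0278 to 0.0026 for Mdm4, -0.1472 to 0.0213 for Rchy1 and -0.0454 to 0.0188 for Psrc1. They ran from -0.0461 to 0.1428 for Ddb2, -0.0094 to 0.0399 for Ercc5, -0.0339 to 0.1063 for Rrm2b, -0.0856 to 0.0545 for Sesn1 and -0.0312 to 0.0262 for Sesn2. Without 1 library the log2 change moved by over 1.5 times for Fas (-0.0625 without aged 1, -0.4040 without aged 3), Plk3 (-0.1033 without aged 2, -0.4234 without aged 3), Gadd45a (-0.0597 without aged 3, -0.2899 without aged 2) and Pmaip1 (-0.0917 without aged 3), among others, none of them called. The cause was not tested. Depth limits Perp, Fas, Plk3 and Ddb2 most, with at most about 55.4 estimated reads per library on average.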
